A study of Mus musculus with 7 samples.

Results

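The genes described here are 10 members of the NF-kB system, chosen by symbol from the 27998 genes of the count matrix and each found there once: the transcription factor subunits Nfkb1, Nfkb2, Rel and Relb, the IkB proteins Nfkbia, Nfkbiz and Bcl3, the feedback enzymes Tnfaip3 and Birc3, and the partner factor Cebpb. Single-cell RNA of abdominal (#4) mammary glands without their lymph nodes was measured in 3 young (3 to 4 months) and 4 aged (13 to 14 months) nulliparous female mice, called Young A to C and Aged A to D. All mice carried a mixture of FVB, 129 and C57BL/6J backgrounds and were taken at diestrus, and each gave 1 droplet library of 3′ tags. The question asked was how gene expression differed between the ages within each cell type, and between related cell types. The cell types were those the authors had named from clusters of these same cells, so differences between types are not independent of the expression values that defined them.

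NF-kB factors are dimers that IkB proteins hold in the cytoplasm until signals from cytokine receptors, Toll-like receptors or tissue damage activate the IkB kinases, which mark IkB for destruction. The freed dimers enter the nucleus and switch on inflammatory and survival genes, among them several of their own inhibitors, so that transcripts of Nfkbia and Tnfaip3 rise with the activity they restrain. In the mammary gland the pathway is known for its part in ductal growth, in milk-producing alveolar development and in the clearance of the gland after lactation. Transcript levels do not by themselves report how much of a factor is in the nucleus.

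The matrix held 13684 cells, 1264 to 2865 per mouse, with 6652599 to 16999625 unique molecular identifiers (UMIs, each a counted transcript) per mouse. Median UMIs per cell were 4758.5 to 5253 in young and 5582 to 7109.5 in aged mice, and the median mitochondrial share was 3.18 to 3.68% in young and 2.48 to 2.82% in aged mice. Of 13583 distinct cell barcodes 101 occurred in more than 1 library, 57 of them in a young and an aged library. All defining markers were highest in their own type in 10 of the 12 types checked. The exceptions were the T and B cells, with 6 of 8, and hormone-sensing (HS) luminal cells, with 2 of 5. Of the HS markers, Prlr, Pgr and Esr1 were highest in HS-AV cells, a luminal type that also carries markers of alveolar (AV) cells, for example at 1443 against 1349 CPM for Prlr. Age group and any difference in the handling of the mice of 1 age cannot be told apart.

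The 10 genes lie on 9 chromosomes, with Bcl3 (chr7:19808462-19822770) and Relb (chr7:19606217-19629438) both on chromosome 7 (GENCODE vM21, GRCm38, reverse strand). Nfkbia, which encodes the classical inhibitor IkB-alpha, lies at chr12:55489410-55492647 on the reverse strand, and Tnfaip3, which encodes a ubiquitin-editing enzyme that ends the signal, at chr10:19000910-19015657 on the reverse strand. The members Nfkbia, Tnfaip3, Nfkb2, Rel, Birc3, Bcl3 and Cebpb, 7 of 10, had entries in the promoter table of RefSeq (GRCm38.p6), 10 windows in all, each of 300 bases from 250 before to 50 after a gene start. Nfkbiz, Nfkb1 and Relb had none.

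The windows were searched on both strands for the letters of an NF-kB binding site, GGG followed by any 3 bases and then TTCC, which on the other strand read GGAA, any 3 bases and CCC. Of 32851 promoter windows 1825 (5.56%) held it, and among the members it was present in 7 of the 10 windows, belonging to Nfkbia, Tnfaip3, Rel and Nfkb2, 4 of the 7 genes. Birc3, Bcl3 and Cebpb did not hold these letters in their windows, and sites spelled with other letters were not searched for. The 3 windows of Nfkb2 include a pair that overlap. One window of each of the 4 genes is shown, 5′ to 3′ on the strand of the gene with the motif in capitals, because these windows hold the motif. The windows of Birc3, Bcl3 and Cebpb, which do not, are not shown. They are chr12:55492598-55492897 for Nfkbia, chr10:19015361-19015660 for Tnfaip3 and chr11:23770920-23771219 for Rel, all on the reverse strand, and chr19:46304487-46304786 for Nfkb2 on the forward strand.
Nfkbia: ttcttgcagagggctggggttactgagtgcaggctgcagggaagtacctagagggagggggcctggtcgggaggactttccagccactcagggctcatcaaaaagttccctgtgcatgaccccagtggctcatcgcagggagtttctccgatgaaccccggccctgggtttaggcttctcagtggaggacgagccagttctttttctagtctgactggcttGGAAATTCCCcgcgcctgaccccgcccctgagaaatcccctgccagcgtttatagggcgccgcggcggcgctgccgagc
Tnfaip3: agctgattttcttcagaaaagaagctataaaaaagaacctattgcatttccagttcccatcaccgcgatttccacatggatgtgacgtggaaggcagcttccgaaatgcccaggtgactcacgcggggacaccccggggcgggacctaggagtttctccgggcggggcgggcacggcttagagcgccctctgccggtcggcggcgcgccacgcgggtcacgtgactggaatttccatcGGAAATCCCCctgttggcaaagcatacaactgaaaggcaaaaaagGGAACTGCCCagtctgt
Rel: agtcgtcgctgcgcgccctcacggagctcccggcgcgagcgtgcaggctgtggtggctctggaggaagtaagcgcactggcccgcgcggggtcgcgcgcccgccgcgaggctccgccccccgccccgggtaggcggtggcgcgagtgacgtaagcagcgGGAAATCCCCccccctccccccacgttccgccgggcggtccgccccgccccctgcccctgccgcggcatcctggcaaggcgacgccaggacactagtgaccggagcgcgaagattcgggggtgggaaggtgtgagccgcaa
Nfkb2: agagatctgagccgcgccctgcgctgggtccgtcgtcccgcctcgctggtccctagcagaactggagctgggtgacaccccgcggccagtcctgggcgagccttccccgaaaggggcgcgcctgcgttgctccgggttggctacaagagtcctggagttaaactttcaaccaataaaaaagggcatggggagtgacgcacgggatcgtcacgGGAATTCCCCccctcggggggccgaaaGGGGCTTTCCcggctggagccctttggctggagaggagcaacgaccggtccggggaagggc
Tnfaip3 and Nfkb2 each held the motif 2 times in the window shown and Nfkbia and Rel 1 time. A match is a run of letters and was not tested for binding.

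Levels are given as CPM, the UMIs of a gene scaled to a total of 1000000 UMIs over all cells of a type in a mouse, for mice with at least 3 cells of the type. Among the subunits, Rel, the c-Rel subunit best known from lymphoid and dendritic cells, was highest in dendritic cells at 442 ± 89.2 CPM (SD, n = 5) and next in Mb macrophages at 192 ± 94.8 CPM (SD, n = 7), and the dendritic value was the higher in 5 of 5 mice with both. Rel was lowest in HS cells at 13.9 ± 3.93 CPM (SD, n = 7). Nfkb1, the precursor of the classical subunit, was highest in fibroblasts at 274 ± 95.5 CPM (SD, n = 7) and lowest in HS cells at 48.9 ± 17.9 CPM (SD, n = 7). Mb macrophages were above fibroblasts for Nfkb1 in the young means, at 304 and 275 CPM, and below them in the aged means, at 146 and 273 CPM. Nfkb2 and Relb, which act together in the non-canonical branch, both had their highest mean in dendritic cells, at 73.2 ± 52.0 CPM (SD, n = 5) and 122 ± 58.0 CPM (SD, n = 5), and their lowest in Ma macrophages, at 13.9 ± 5.53 CPM (SD, n = 3) and 32.1 ± 4.29 CPM (SD, n = 3). The Ma values come from young mice only, and the dendritic means were 39.8 and 82.0 CPM in young and 123 and 181 CPM in 2 aged mice. In young mice alone Mb macrophages were highest, at 46.8 CPM for Nfkb2 and 92.6 CPM for Relb. HS cells of young mice, at 13.1 and 30.2 CPM, were below Ma macrophages for both genes.

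The inhibitor Nfkbia had similar top means in Mb macrophages, at 4496 ± 2836 CPM (SD, n = 7), and vascular endothelial cells, at 4467 ± 1682 CPM (SD, n = 7), and its lowest in T and B cells at 894 ± 377 CPM (SD, n = 7). These orders pool both ages. In young mice alone Nfkbia was highest in pericytes, at 2949 CPM, and lowest in myoepithelial cells, at 574 CPM. Young vascular endothelial cells were at 2741 CPM and young Mb macrophages at 2675 CPM. Nfkbiz, a nuclear IkB that switches on secondary response genes, led in Ma macrophages at 579.8 ± 128 CPM (SD, n = 3), above Mb macrophages in 3 of 3 mice. Bcl3, a nuclear IkB that pairs with DNA-bound subunits, ranged from 28.4 ± 38.9 CPM (SD, n = 7) in T and B cells to 112 ± 39.6 CPM (SD, n = 7) in vascular endothelial cells. In young mice alone dendritic cells were highest for Bcl3, at 89.6 CPM, and vascular endothelial cells were at 73.3 CPM. Tnfaip3 was led by immune cells: 481 ± 260.5 CPM (SD, n = 7) in Mb macrophages, 276 ± 55.3 CPM (SD, n = 3) in Ma macrophages and 214 ± 123 CPM (SD, n = 7) in T and B cells, against 15.7 ± 13.1 CPM (SD, n = 7) in HS cells. The Ma values are from young mice, where Mb macrophages had a mean of 255 CPM and were the higher in 1 of 3 mice. In lymphatic endothelial cells Tnfaip3 had 0 UMIs in the 25 cells of the 5 mice with at least 3 such cells, which allows up to 19.7 CPM over those cells (3 counts of their total), while 2 of all 28 lymphatic cells had a Tnfaip3 UMI. Intervals and limits of this kind cover counting error only.

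Birc3, a ubiquitin ligase of tumour necrosis factor receptor complexes that blocks cell death, was highest in dendritic cells at 148 ± 52.3 CPM (SD, n = 5) and lowest in HS cells at 31.9 ± 7.90 CPM (SD, n = 7). Cebpb, a leucine zipper factor that works beside NF-kB on inflammatory promoters and is needed for alveolar development, was highest in lymphatic endothelial cells at 2675 ± 969 CPM (SD, n = 5), fibroblasts at 2591 ± 961 CPM (SD, n = 7) and myoepithelial cells at 2217 ± 439 CPM (SD, n = 7), and lowest in HS cells at 296 ± 107 CPM (SD, n = 7). Young mice alone had the highest Cebpb mean in myoepithelial cells, at 2442 CPM. Lymphatic endothelial cells were at 1809 CPM and fibroblasts at 1687 CPM in young mice. Birc3 in young mice was highest in Ma macrophages, at 134 CPM, and lowest in T and B cells, at 7.18 CPM. Over the mice of both ages HS cells held the lowest mean of Nfkb1, Rel, Birc3 and Cebpb among the 13 types. Most steps in these orders were small: of 120 pairs of neighbouring types over the 10 genes, 11 had a mean log2 difference within mice above its SD, and 7 kept their order in every mouse with both types. For Relb, Birc3 and Cebpb none of the 12 neighbouring pairs differed beyond that spread.

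**Figure D1:**
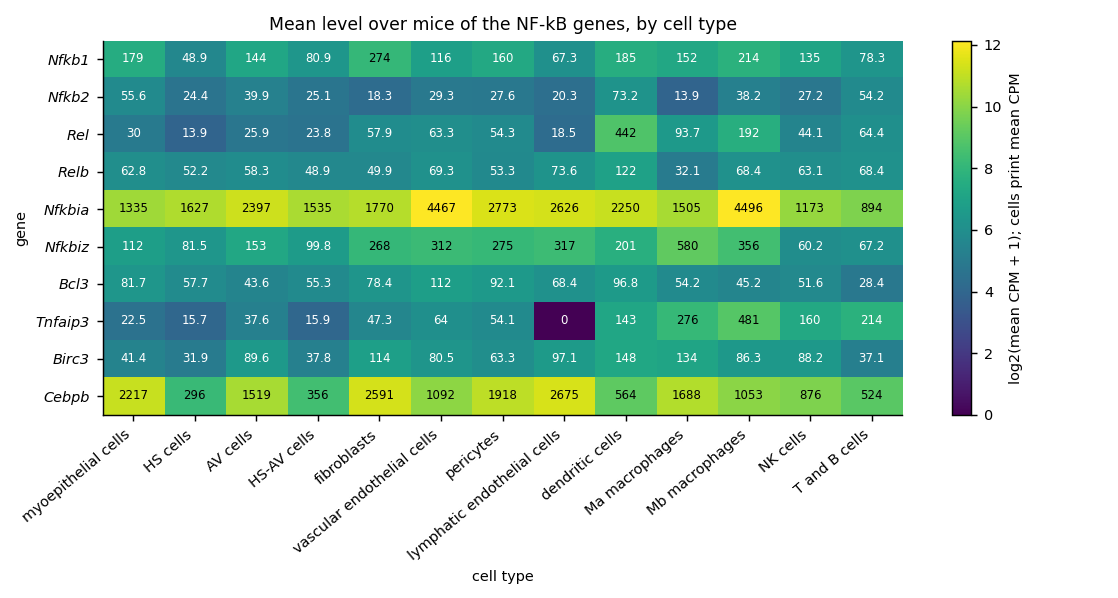
Mean CPM over mice of each gene (vertical axis) in each cell type (horizontal axis), coloured on a log2 scale with the mean printed in each cell. Rel stands out in dendritic cells (442 CPM), Tnfaip3 in macrophages, and HS cells are low for Nfkb1, Rel, Birc3 and Cebpb.

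To compare shares of cells with a UMI at equal depth, each cell was reduced to 2000 randomly drawn UMIs, which left out no cell. At that depth Rel was found in 56.8 ± 13.7% of dendritic cells (mean ± SD over mice) and in 2.63 ± 1.66% of HS cells, with median depths of 4648 and 7277 UMIs before thinning. Without thinning the shares were 79.5 ± 9.77% and 9.88 ± 2.17%. For Tnfaip3 the thinned shares were 57.0 ± 21.5% in Mb macrophages (median depth 5343 UMIs) and 2.86 ± 3.02% in HS cells, and without thinning they were 83.5 ± 20.5% and 8.81 ± 6.65%. No type here is known to lack either gene, so the background from free RNA was not measured.

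The genes whose log2(CPM + 1) most resembled each member were found over 58 sums of a mouse and type with at least 10 cells, among 7380 genes with a mean of at least 10 CPM. These points share mice and libraries, and the coefficients are descriptions. Rel was most like Etv3 (r = 0.88), Phf11b (r = 0.79) and Cd86 (r = 0.78), of which Cd86 is a co-stimulatory molecule of antigen-presenting cells. Nfkbia was most like Rnf19b (r = 0.76), Ralb (r = 0.71) and Zc3h12a (r = 0.70), and Relb shared a pair of these, with Stx11 (r = 0.68), Zc3h12a (r = 0.67) and Rnf19b (r = 0.66); Zc3h12a encodes an RNase that degrades inflammatory transcripts. Tnfaip3 was most like Rab8b (r = 0.78), Slfn2 (r = 0.76) and Kctd12 (r = 0.76), Nfkbiz like Lmo2 (r = 0.78), Ppp1r15a (r = 0.73) and Dab2 (r = 0.72), and Nfkb1 like Pim1 (r = 0.77), Epb41l2 (r = 0.70) and Rap1b (r = 0.68). Birc3 came with Cd47 (r = 0.72), Smpdl3a (r = 0.71) and Pim1 (r = 0.70), Nfkb2 with Lamb3 (r = 0.62), Efhd2 (r = 0.61) and Pcgf5 (r = 0.61), Bcl3 with Tmbim1 (r = 0.80), Rsu1 (r = 0.76) and Ube2v2 (r = 0.74) and Cebpb with Aldh2 (r = 0.83), Thbs1 (r = 0.79) and Mat2a (r = 0.77). No member was among the 3 genes most like another.

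In vascular endothelial cells all 10 members were higher in aged than in young mice, by 1.78- to 2.99-fold, and for none of them did the ages overlap, as was so for 18.4% of all genes tested, each higher in every aged than in any young mouse. Here and in the other comparisons by age a gene was called changed at an adjusted p under 0.05 (edgeR quasi-likelihood test over all genes tested, Benjamini-Hochberg) and at least 1.5-fold, and values are CPM after normalization of the mice of a type to each other. The share of all genes tested that were called in these cells was 14.7% higher and 12.0% lower. The median log2 difference of the members was 1.23, against -0.045 over all 7864 genes tested.

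Nfkbia stood at 2276, 2315 and 2667 CPM in Young A, B and C and 7178, 6741, 5754 and 6213 CPM in Aged A, B, C and D, and the lowest aged mouse was above the highest young mouse by more than the whole range within either age (log2 difference 1.42, SE 0.14, adjusted p = 9.26e-06). Tnfaip3 had the largest difference, with 24.3, 31.6 and 42.2 CPM in the young and 131, 85.4, 77.3 and 85.3 CPM in the aged mice (log2 difference 1.58, SE 0.24, adjusted p = 0.000278). Aged A was the highest mouse for Tnfaip3, and the other aged mice were close together. Relb, the non-canonical partner of Nfkb2, had 35.1, 44.3 and 37.2 CPM in the young and 109.7, 78.0, 96.2 and 115 CPM in the aged mice (log2 difference 1.35, SE 0.19, adjusted p = 0.000148), and Nfkb2 had 20.2, 14.6 and 22.3 CPM in the young and 62.7, 27.5, 36.7 and 31.7 CPM in the aged mice (log2 difference 1.05, SE 0.29, adjusted p = 0.0155). Relb was separated by a wide gap, while for Nfkb2 the gap between the ages was narrow and Aged A stood above the rest.

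Bcl3 had 49.1, 66.1 and 79.5 CPM in the young and 169.9, 147, 178 and 140.3 CPM in the aged mice (log2 difference 1.32, SE 0.18, adjusted p = 0.000142), and Cebpb 630.3, 731 and 559.9 CPM in the young and 2089, 1190.1, 1448 and 1434 CPM in the aged mice (log2 difference 1.26, SE 0.19, adjusted p = 0.000257). Each aged mouse was well above each young mouse for both genes. The remaining members were Nfkbiz at 189 ± 20.4 CPM (SD, n = 3) in young and 433 ± 53.8 CPM (SD, n = 4) in aged mice (log2 difference 1.19, SE 0.15, adjusted p = 7.03e-05), Nfkb1 at 80.5 ± 16.3 CPM (SD, n = 3) in young and 151 ± 30.9 CPM (SD, n = 4) in aged mice (log2 difference 0.93, SE 0.19, adjusted p = 0.0028), Birc3 at 56.6 ± 4.15 CPM (SD, n = 3) in young and 104 ± 17.0 CPM (SD, n = 4) in aged mice (log2 difference 0.88, SE 0.17, adjusted p = 0.00167) and Rel at 46.6 ± 13.8 CPM (SD, n = 3) in young and 80.0 ± 8.26 CPM (SD, n = 4) in aged mice (log2 difference 0.83, SE 0.20, adjusted p = 0.00775). Rel lost its call without Young A (adjusted p = 0.0502) and Nfkb2 without Young B (adjusted p = 0.0845), both in the same test.

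**Figure D2:**
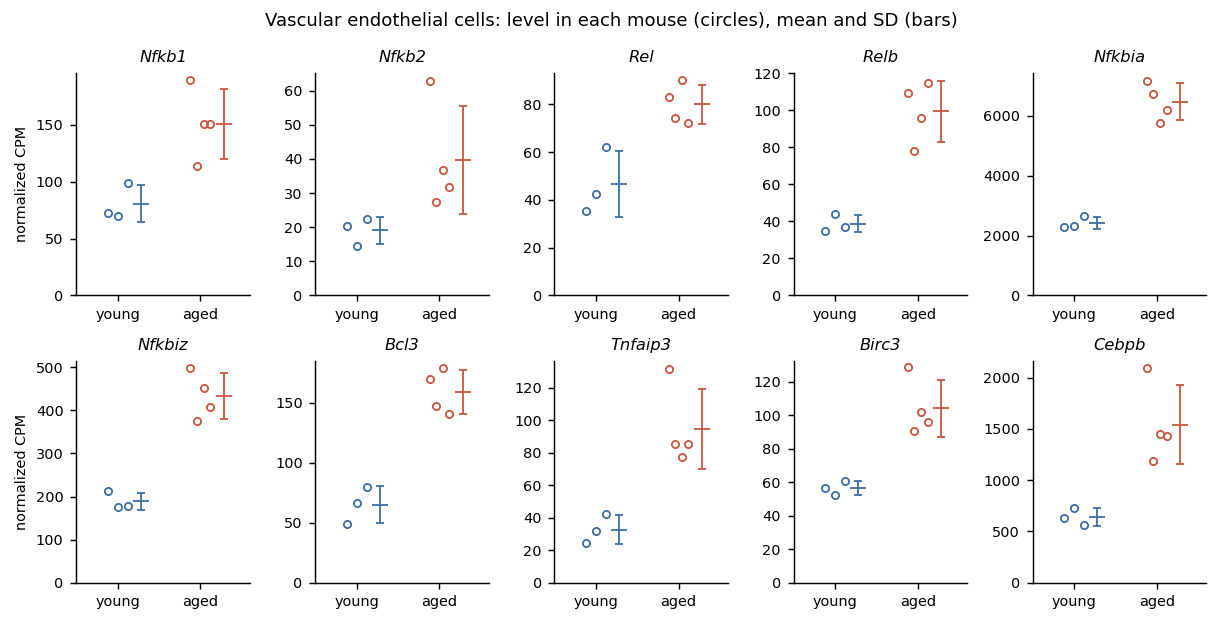
Normalized CPM (vertical axes from 0) of the 10 genes in vascular endothelial cells of 3 young and 4 aged mice, a circle for each mouse and a bar for the mean with its SD. In every panel the lowest aged circle lies above the highest young circle.

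The share of endothelial cells with a UMI moved the same way at equal depth. At 2000 UMIs per cell, Bcl3 was found in 10.0 to 13.8% of cells in young and 22.2 to 27.5% in aged mice, and Relb in 5.52 to 8.99% and 11.6 to 17.7%. Without thinning the ranges were 24.0 to 29.7% and 42.8 to 57.4% for Bcl3 and 16.6 to 20.6% and 28.8 to 43.1% for Relb. A thinned young cell held a mean of 2.54 ± 0.0503 of the 10 members (SD, n = 3) and an aged cell 3.41 ± 0.188 (SD, n = 4). Cells with at least 3 members made up 47.7 ± 1.13% and 73.8 ± 5.27%, with no overlap between the ages.

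Some other genes of the pathway were also called in these cells, where 14.7% of all genes tested were called higher and 12.0% lower. Of 32 genes listed as inducible targets 23 were tested, and 15 rose and 1 fell, with Csf3 at a log2 difference of 3.81 ± 0.19 (SE), the adhesion molecules Sele at 3.49 ± 0.23 and Vcam1 at 2.90 ± 0.26, and Ccl7 at -3.63 ± 1.02. The list is not independent of these data, since the study had already reported Csf3, Cxcl1, Cxcl16 and Il6 as raised with age in these cells. Sele was also among the markers against which the type was checked. Of 20 receptors and adaptors tested 6 rose and 3 fell, with Traf1 at 2.99 ± 0.23, Tnfrsf11a, the receptor RANK, at 2.74 ± 0.27 and the interleukin receptor Il1r1 at 2.43 ± 0.21. Of 8 kinases 2 rose, Map3k8 (1.51 ± 0.24) and the IkB kinase subunit gene Ikbkb (0.77 ± 0.19). Among 20 other regulators 4 rose, with Tnip1, a partner of the Tnfaip3 protein, at 2.31 ± 0.21 and Rela at 0.63 ± 0.22, and 1 fell. None of the 4 tested members of the C/EBP family other than Cebpb was called.

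Several other measures differed between the ages in the same cells. Early response and heat-shock genes, which tissue dissociation can induce, rose in 3 and fell in 4 of 20, Fosb at -1.53 ± 0.19 and Egr1 at -1.13 ± 0.16 among those that fell and Myc at 1.51 ± 0.18 among those that rose. Median depth was 4421 to 4740 UMIs per cell in young and 4805 to 5736.5 in aged mice, and the mitochondrial share 2.87 to 2.93% and 2.23 to 2.29%. The summed level of 6 myeloid markers was 199 to 600.0 CPM in young and 626 to 8702 CPM in aged mice, and 3 of the 6 had a higher mean in aged mice. Nearly all of it was Cd74, a gene of antigen presentation that is not limited to myeloid cells. Cd74 was at 576, 188 and 484 CPM in Young A to C and 8697, 617, 669 and 2982 CPM in Aged A to D. The myeloid marker Fcgr3 was at most 1.09 CPM in young mice and at 1.06, 9.08, 4.46 and 8.89 CPM in Aged A to D. Lyz2 went the other way, at 8.17 CPM or more in each young mouse and at most 2.12 CPM in any aged mouse. Csf1r was at most 1.46 CPM and Ptprc at most 2.91 CPM in any mouse. All 10 members were still called without Aged A. The 3 myoepithelial markers summed to 9.80 to 36.4 CPM in young and 62.4 to 175 CPM in aged mice, without overlap and with 3 of 3 higher in mean. The 6 markers of AV cells summed to 371 to 782 and 408 to 804 CPM, with 5 of 6 higher in mean. The 4 fibroblast markers, at 42.5 to 148 CPM in young and 11.7 to 33.9 CPM in aged mice, were all lower in mean. No marker of these lists was at 0 in every mouse. The part of these markers, depth, mitochondrial share and dissociation in the members' differences was not tested.

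The largest called difference with age of any member was that of Tnfaip3 in myoepithelial cells. Of the 10 members 7 were higher in aged mice and none lower, where 12.8% of all genes tested were called higher and 14.8% lower. The median log2 difference was 1.45, against 0.011 over all 6740 genes tested. Tnfaip3 had 4.75, 0 and 9.69 CPM in the young and 47.8, 19.3, 49.6 and 32.7 CPM in the aged mice (log2 difference 2.77, SE 0.56, adjusted p = 0.00172). The 0 in Young B allows up to 14.7 CPM (3 counts in that library), so that the young values rest on few UMIs, and the ages did not overlap. All values of the aged mice were above all of the young for 18.2% of all genes tested.

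Nfkbia had 512, 532 and 639 CPM in the young and 2016, 1624, 2306 and 2086 CPM in the aged mice (log2 difference 1.84, SE 0.21, adjusted p = 1.56e-05), a separation with close values within each age. Nfkbiz had 34.2, 45.9 and 32.3 CPM in the young and 249.7, 96.9, 176 and 177 CPM in the aged mice (log2 difference 2.26, SE 0.33, adjusted p = 0.000144) and Nfkb2 15.2, 18.3 and 29.1 CPM in the young and 99.2, 68.1, 76.9 and 98.1 CPM in the aged mice (log2 difference 2.15, SE 0.30, adjusted p = 0.000116). Both were separated, and Aged B was the lowest aged mouse for each. Relb was at 24.6 ± 10.3 CPM (SD, n = 3) in young and 96.0 ± 17.3 CPM (SD, n = 4) in aged mice (log2 difference 1.76, SE 0.28, adjusted p = 0.000293) and Nfkb1 at 111 ± 16.7 CPM (SD, n = 3) in young and 239.9 ± 42.2 CPM (SD, n = 4) in aged mice (log2 difference 1.14, SE 0.22, adjusted p = 0.00105), again without overlap.

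Birc3 overlapped between the ages, at 25.6, 36.7 and 22.6 CPM in the young and 58.6, 34.2, 72.1 and 47.1 CPM in the aged mice (log2 difference 0.91, SE 0.32, adjusted p = 0.043), with Young B above Aged B. Its call was lost without Young A, Young C, Aged A, Aged C or Aged D, with adjusted p up to 0.221 in the same test. Rel was not called (log2 difference 0.80, SE 0.35, adjusted p = 0.0941), and without Young C, its highest young mouse, it was (1.35, adjusted p = 0.0131). Bcl3 was not called (log2 difference 0.30, SE 0.28, adjusted p = 0.457). Cebpb was not called either, with 2454, 2481 and 2215 CPM in the young and 2502, 2437, 2061 and 1559 CPM in the aged mice (log2 difference -0.16, SE 0.20, adjusted p = 0.609), and its ages overlapped.

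Myoepithelial inducible targets rose in 13 of 21 tested with none falling, led by the neutrophil chemokines Cxcl2 at a log2 difference of 6.32 ± 0.66 (SE) and Cxcl1 at 5.74 ± 0.49 and by Csf3 at 6.19 ± 0.30. Cxcl1, Cxcl2, Cxcl16, Csf1 and Csf3 of this list had already been reported by the study as raised with age in these cells. Tlr2, a receptor for bacterial lipoproteins, rose by 3.67 ± 0.36 and Tnfrsf12a by 0.96 ± 0.21, and Il1rap fell (-1.64 ± 0.45). Of 17 other regulators 4 rose, among them Tnip1 (2.51 ± 0.29), Zc3h12a (2.30 ± 0.37) and Rela (1.10 ± 0.22), and 2 fell. No kinase of 7 was called. In the C/EBP family Cebpa (1.00 ± 0.28) and Cebpg (0.93 ± 0.27) rose.

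Beside these, early response genes rose in 3 and fell in 2 of 20 tested. Median depth was 4759.5 to 5226.5 UMIs per cell in young and 3797 to 4856 in aged mice, and the mitochondrial share 4.38 to 5.68% and 3.02 to 3.88%. The 6 markers of AV cells summed to 1347 to 1427 CPM in young and 1025 to 1679.9 CPM in aged mice, with 4 of 6 higher in mean. The 6 myeloid markers summed to 177 to 263 CPM in young and 35.8 to 74.2 CPM in aged mice, none had a higher mean in aged mice, and 1 of them was at 0 in every mouse. The 4 fibroblast markers summed to 29.5 to 208 CPM in young and 3.08 to 25.7 CPM in aged mice and were all lower in mean. The part of these measures in the differences was not tested. At 2000 UMIs per cell Nfkbia was found in 48.1 to 62.5% of young and 79.2 to 92.4% of aged myoepithelial cells, and without thinning in 72.2 to 85.0% and 86.7 to 97.3%. A thinned cell held 2.13 ± 0.131 members in young and 3.04 ± 0.376 in aged mice (SD over mice), without overlap.

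In HS cells 5 of 10 members rose and none fell, where 3.93% of all genes tested were called higher and 2.33% lower. The median log2 difference was 0.97, against 0.016 over all 8457 genes tested. Nfkbia had 861, 993 and 806 CPM in the young and 2513, 1806, 2445 and 2150.4 CPM in the aged mice (log2 difference 1.33, SE 0.18, adjusted p = 0.00318) and Tnfaip3 3.00, 5.27 and 5.15 CPM in the young and 36.4, 14.6, 18.0 and 29.2 CPM in the aged mice (log2 difference 2.42, SE 0.37, adjusted p = 0.00606), and neither overlapped, as was so for 10.9% of all genes tested, higher in the aged mice. Both calls stayed in each fit that left out 1 mouse. Relb was at 29.2 ± 5.33 CPM (SD, n = 3) in young and 70.2 ± 22.1 CPM (SD, n = 4) in aged mice (log2 difference 1.28, SE 0.25, adjusted p = 0.0156), Nfkb2 at 12.7 ± 2.93 CPM (SD, n = 3) in young and 33.5 ± 10.4 CPM (SD, n = 4) in aged mice (log2 difference 1.39, SE 0.28, adjusted p = 0.0191) and Nfkbiz at 41.2 ± 6.63 CPM (SD, n = 3) in young and 112 ± 45.2 CPM (SD, n = 4) in aged mice (log2 difference 1.45, SE 0.31, adjusted p = 0.0238). These 3 calls were lost without Young A, with adjusted p of 0.0595, 0.0649 and 0.0686, and without Young C, with 0.0804, 0.0669 and 0.109. Nfkbiz was also lost without Young B, Aged C or Aged D.

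Birc3 (log2 difference 0.66, SE 0.20, adjusted p = 0.0804) and Nfkb1 (log2 difference 0.57, SE 0.22, adjusted p = 0.143) did not pass the test although their values did not overlap between the ages. Cebpb (log2 difference 0.53, SE 0.23), Rel (log2 difference 0.03, SE 0.27) and Bcl3 (log2 difference -0.44, SE 0.31) overlapped and were not called, with adjusted p of 0.186, 0.977 and 0.425. Among other regulators 3 of 21 rose, Nfkbie at 2.78 ± 0.45, Zc3h12a at 1.45 ± 0.34 and Tnip1 at 1.30 ± 0.22. Inducible targets rose in 6 of 19, with Cxcl2 at 2.11 ± 0.46, and 1, Ccl7, fell at -2.98 ± 0.79. Early response genes rose in 1 of 19, Klf4 at 0.88 ± 0.21, depth was 6588 to 7106 UMIs per cell in young and 7769.5 to 9616.5 in aged mice and the mitochondrial share 4.27 to 5.20% and 3.69 to 3.97%. The 3 myoepithelial markers summed to 13.9 to 22.2 CPM in young and 38.0 to 139.6 CPM in aged HS cells, without overlap and with 3 of 3 higher in mean. The 6 myeloid markers summed to 67.4 to 86.0 and 8.15 to 43.8 CPM, none higher in mean and 2 of them at 0 in every aged mouse, and the 4 fibroblast markers, at 11.1 to 84.5 and 0 to 11.4 CPM, were all lower in mean too. The 6 markers of AV cells overlapped, at 452 to 895 and 316 to 1078 CPM with 4 of 6 higher in mean. The part of these measures in the members' differences was not tested.

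AV cells had 2 of 10 members higher with age and none lower, where 2.90% of all genes tested were called higher and 3.26% lower. The median log2 difference was 0.82, against 0.017 over all 11012 genes tested. Birc3 had 36.8, 29.7 and 35.1 CPM in the young and 249, 129, 115 and 59.6 CPM in the aged mice (log2 difference 2.01, SE 0.42, adjusted p = 0.0222) and Relb 24.7, 18.2 and 36.6 CPM in the young and 142, 65.2, 87.3 and 51.3 CPM in the aged mice (log2 difference 1.64, SE 0.37, adjusted p = 0.0296). Neither overlapped, as was so for 11.7% of all genes, higher in the aged mice, and in both Aged A was highest and Aged D lowest among the aged mice. Both calls were lost without Young A, without Young B or without Young C (adjusted p of 0.0803, 0.0755 and 0.0976 for Birc3 and 0.11, 0.09 and 0.0691 for Relb), and that of Relb without Aged C (0.0692).

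Nfkbia in AV cells had 1129.8, 1315 and 2224 CPM in the young and 3017, 4202, 3383 and 1883 CPM in the aged mice (log2 difference 1.00, SE 0.30, adjusted p = 0.0779), with Young C above Aged D. Tnfaip3 had 5.55, 31.4 and 16.6 CPM in the young and 79.2, 47.8, 65.3 and 28.8 CPM in the aged mice (log2 difference 1.84, SE 0.50, adjusted p = 0.0561), with Young B above Aged D. Without Aged D both were called, at 1.16 (adjusted p = 0.0425) and 2.04 (adjusted p = 0.0433). Aged D was the lowest aged mouse for 9 of the 10 members in these cells. The exception was Cebpb, where Aged B was lowest. The other members overlapped between the ages and were not called, from Rel at log2 difference 0.17, SE 0.37 to Nfkbiz at log2 difference 0.93, SE 0.35.

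The lists in AV cells held 7 inducible targets of 26 that rose, with Irf1 at 2.62 ± 0.30 (SE), Icam1 at 2.75 ± 0.60 and Vcam1 at 3.11 ± 0.76, and 3 that fell, among them Ccl7 at -2.94 ± 0.65. Of 24 receptors and adaptors 3 rose, among them Tlr4, the endotoxin receptor, at 1.84 ± 0.31, and of 22 other regulators 3 rose, with Nfkbid at 1.86 ± 0.44 and Tnip1 at 1.69 ± 0.44. The kinase gene Map3k8 (1.75 ± 0.43) and Cebpa (1.14 ± 0.23) rose too. Tnip1 was called higher in vascular endothelial, myoepithelial, HS and AV cells and in pericytes. Hspa8 (0.99 ± 0.17) was the 1 early response or heat-shock gene of 20 that rose, depth was 4864 to 5602.5 UMIs per cell in young and 6407 to 7796 in aged mice and the mitochondrial share 2.99 to 3.93% and 2.12 to 2.38%. The 6 myeloid markers summed to 105 to 164 CPM in young and 12.7 to 64.0 CPM in aged AV cells, none higher in mean and 1 of them at 0 in every aged mouse. The 4 fibroblast markers summed to 30.6 to 178 and 1.23 to 5.59 CPM, again with none higher in mean. The 3 myoepithelial markers overlapped, at 39.7 to 95.3 and 45.3 to 121 CPM with 2 of 3 higher in mean. The part of these measures was not tested.

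**Figure D3:**
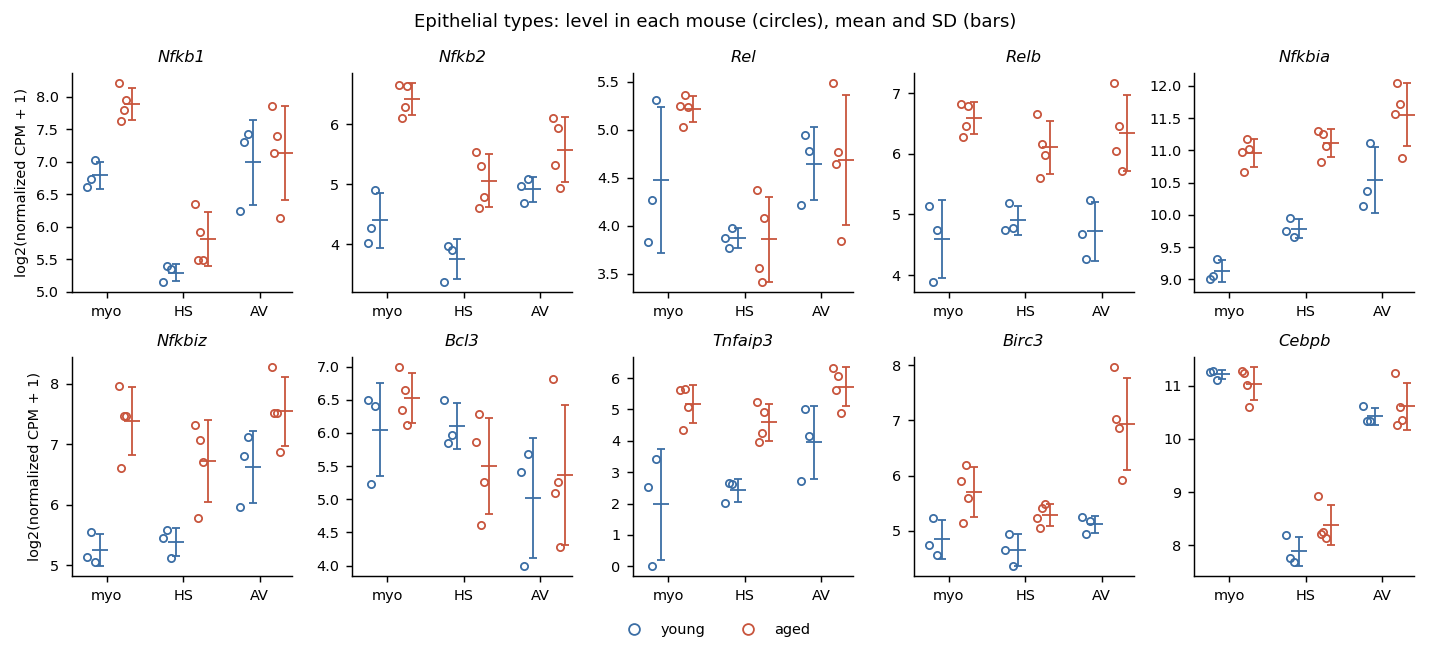
Log2(normalized CPM + 1) of the 10 genes (vertical axes do not start at 0) in myoepithelial (myo), HS and AV cells of 3 young (blue) and 4 aged (red) mice, with the mean and SD of the log values as bars. Nfkbia, Nfkb2 and Relb separate the ages in myoepithelial and HS cells, and Cebpb differs by type far more than by age.

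The stromal and immune types other than vascular endothelium gave few or no calls. In fibroblasts 1 of 10 members rose, Cebpb, where 2.07% of all genes tested were called higher and 1.11% lower. It had 1637, 1737 and 1711 CPM in the young and 3352, 4407, 3232 and 2980.1 CPM in the aged mice (log2 difference 1.04, SE 0.20, adjusted p = 0.0104), without overlap (7.02% of all genes tested were higher without overlap) and with close values in the young mice, and the call was lost without Young B (adjusted p = 0.0521) or Young C (adjusted p = 0.0518). Nfkbia in fibroblasts overlapped, with 1801, 1787 and 1737 CPM in the young and 2479, 1574, 2060.5 and 1475 CPM in the aged mice (log2 difference 0.10, SE 0.21, adjusted p = 0.857), and Relb was at log2 difference 1.06, SE 0.33, adjusted p = 0.0974. Aged D fibroblasts had 0 UMIs of Tnfaip3, which allows up to 27.4 CPM. The aged mice had 15 to 121 fibroblasts and the young mice 184 to 1034, and inducible targets rose in 5 of 21, with Lcn2 at 2.59 ± 0.61. The heat-shock genes Hspa1a (3.40 ± 0.62) and Hspa1b (2.56 ± 0.56) rose and 2 of the 20 early response genes fell. The 6 markers of AV cells summed to 224 to 608 CPM in young and 355 to 2011 CPM in aged fibroblasts, with 5 of 6 higher in mean, and the 3 myoepithelial markers to 12.5 to 37.0 and 57.5 to 98.3 CPM, with 3 of 3 higher. The 4 markers of fibroblasts themselves were all lower in mean, at a sum of 6491 to 9644 CPM in young and 3963 to 5603 CPM in aged mice, without overlap. The 6 myeloid markers, at 66.8 to 361 and 11.5 to 34.5 CPM, were all lower in mean as well, with 3 of them at 0 in every aged mouse. The part of these measures in the Cebpb difference was not tested.

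In pericytes none of 9 members tested was called with edgeR or with DESeq2, where 7.19% of all genes were called higher and 4.61% lower. An unadjusted p under 0.05 was found for 2, Nfkb1 and Cebpb, and no share of all genes is given at that limit. Nfkbia had 3392, 2988 and 3168 CPM in the young and 3667, 2653, 3385 and 3041 CPM in the aged mice, with overlapping ages and means of 3183 and 3186 CPM (SE of the log2 difference 0.17, adjusted p = 0.999). Nfkb1 had the lowest log2 difference, with 234, 229 and 244 CPM in the young and 119, 82.5, 133 and 231 CPM in the aged mice (log2 difference -0.79, SE 0.28, adjusted p = 0.0767). Without Aged D, which was as high as the young mice, it was called lower (-1.08, adjusted p = 0.0234). Cebpb was at log2 difference 0.54, SE 0.24, adjusted p = 0.154, while 5 of 18 inducible targets rose, among them Lcn2 (2.91 ± 0.42), and 7 of 19 early response and heat-shock genes rose and 1 fell. Markers of AV cells summed to 361 to 679.7 CPM in young and 577 to 2495 CPM in aged pericytes, with 5 of 6 higher in mean, and the 3 myoepithelial markers to 4.57 to 66.3 and 21.2 to 520.2 CPM, with 3 of 3 higher. The 5 vascular endothelial markers were all lower in mean, at 1628 to 1759 and 733 to 1244 CPM, and so were the 4 fibroblast markers, at 334 to 457 and 45.2 to 185 CPM. The part of these markers and of the early response genes was not tested.

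Mb macrophages, with 3 to 9 cells per aged mouse, had no member of 7 called by edgeR, where 0.931% of genes tested were called higher and 0.233% lower. At an unadjusted p under 0.05 there were 4, Nfkbia, Nfkbiz, Tnfaip3 and Birc3, and DESeq2 called 1, Tnfaip3. The shares above are for calls, and none is given for all genes at the unadjusted limit. Nfkbia had 2679, 2966 and 2963 CPM in the young and 3057, 12397, 4777 and 11566 CPM in the aged mice (log2 difference 1.46, SE 0.47, adjusted p = 0.14), and Tnfaip3 246, 341 and 235 CPM in the young and 552, 912, 675 and 1344 CPM in the aged mice (log2 difference 1.64, SE 0.37, adjusted p = 0.0858). Nfkbia, Nfkbiz and Tnfaip3 did not overlap between the ages, as was so for 8.03% of genes tested, higher in the aged mice, but Aged B and Aged D were far above Aged A and Aged C for Nfkbia. In T and B cells only Nfkbia and Cebpb passed the filter on low counts. Neither was called by edgeR or DESeq2, none had an unadjusted p under 0.05, and 0.219% of genes tested were called higher and 0.438% lower. The log2 differences were 0.88 (SE 0.40, adjusted p = 0.372) for Nfkbia and 0.97 (SE 0.53, adjusted p = 0.453) for Cebpb. Over the 8 types, 68 combinations of member and type were tested, of which 25 were called higher and none lower. These combinations share genes and mice and are not independent. Of all genes tested, 0.219% (T and B cells) to 14.7% (vascular endothelial cells) were called higher in a type. Called lower were 0.233% (Mb macrophages) to 14.8% (myoepithelial cells).

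**Figure D4:**
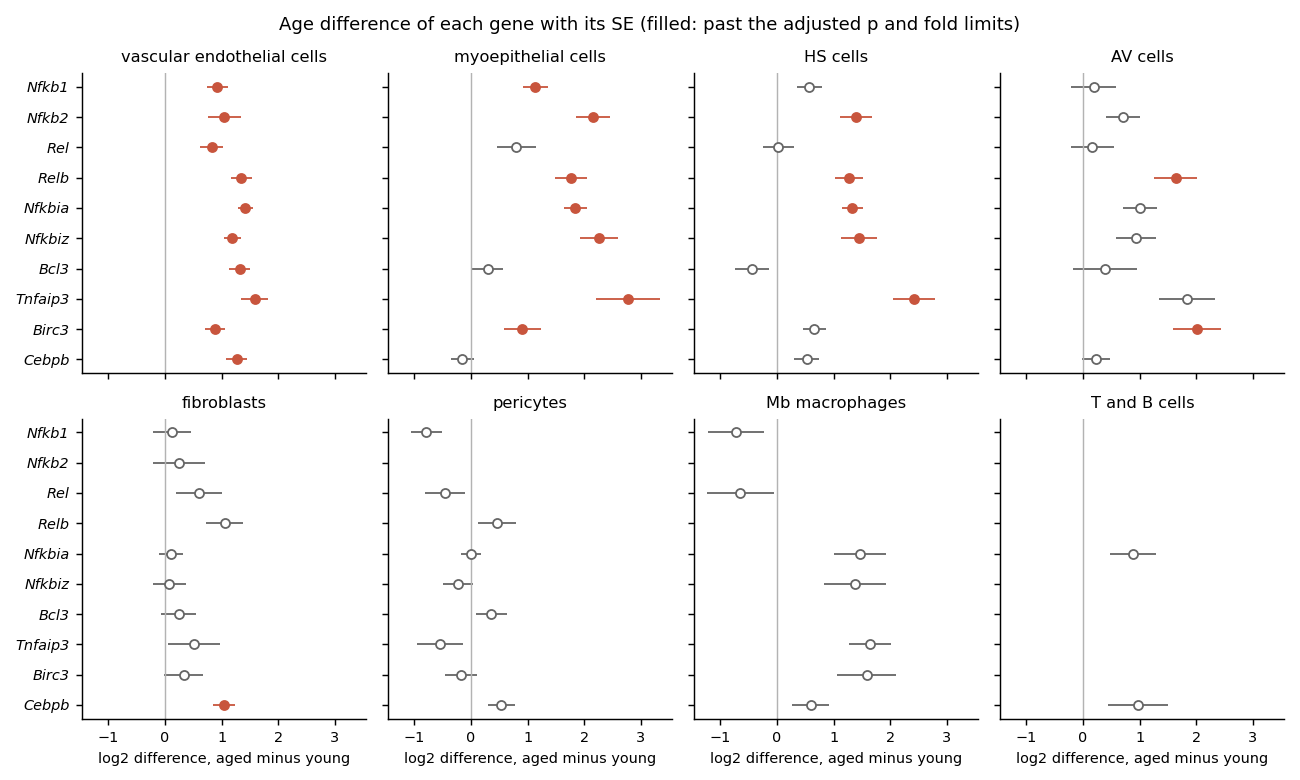
Log2 difference between aged and young mice (horizontal axes) of each gene with its SE, in 8 cell types, with filled points for genes past the adjusted p and fold limits. All 10 are filled in vascular endothelial cells, 7 in myoepithelial, 5 in HS and 2 in AV cells, 1 in fibroblasts and none in the other types; genes below the filter have no point.

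Whether the age difference itself differed between types was tested as an interaction within mice, called at an adjusted p under 0.05 with no fold minimum. Between myoepithelial and AV cells 3 of 10 members differed, all with the larger rise in myoepithelial cells, where 5.82% of genes were called in this direction and 3.43% in the other. On the log2 scale Nfkb2 differed by 1.65 (SE 0.41, adjusted p = 0.0173), Nfkbiz by 1.31 (SE 0.37, adjusted p = 0.0329) and Nfkbia by 0.98 (SE 0.27, adjusted p = 0.0315). Without Young A the call of Nfkb2 was lost (adjusted p = 0.176), and those of Nfkbiz and Nfkbia were lost without Young B, Young C, Aged C or Aged D (adjusted p up to 0.22 and 0.199). Nfkb1 was called without Young A (1.41, adjusted p = 0.048). Birc3 had the opposite sign, a larger rise in AV cells, and was not called (log2 difference -0.76, SE 0.47, adjusted p = 0.325).

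Between vascular endothelial cells and fibroblasts 3 of 10 differed with the larger rise in endothelial cells, where 3.71% of genes were called in this direction and 1.99% in the other. Nfkbia differed most (log2 difference 1.35, SE 0.18, adjusted p = 0.000106), then Nfkbiz (log2 difference 1.16, SE 0.28, adjusted p = 0.016) and Bcl3 (log2 difference 1.03, SE 0.30, adjusted p = 0.0438), and the calls of Nfkbia and Nfkbiz stayed in every fit that left out 1 mouse. That of Bcl3 was lost without Young B, Young C, Aged B or Aged C (adjusted p up to 0.0892), and without Young C Tnfaip3 was called (1.57, adjusted p = 0.0229). Cebpb, which rose in both types, differed by 0.21 (SE 0.23, adjusted p = 0.702) and was not called. Between AV and HS cells none was called by edgeR or DESeq2, and 0.640% of all genes were called with a larger and 1.77% with a smaller log2 difference in AV cells. An unadjusted p under 0.05 was found for 2 members, and no share of all genes is given at that limit. Birc3 had the largest value there (log2 difference 1.21, SE 0.40, adjusted p = 0.134), and it was called without Aged D (1.58, adjusted p = 0.0158).

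Among related types in the same mice, AV cells were above HS cells in 8 of 10 members, where 22.6% of all genes tested were called higher and 19.9% lower in AV cells. Cebpb ranged from 1316 to 2588 CPM, with a median of 1439.7 CPM, in AV cells and from 192 to 451 CPM, with a median of 274 CPM, in HS cells (log2 difference 2.59, SE 0.11, adjusted p = 1.32e-09). It was higher in AV cells in 7 of 7 mice, and the lowest AV value was above the highest HS value. Nfkb1 ranged from 76.6 to 246 CPM, with a median of 174 CPM, in AV cells and from 32.6 to 74.6 CPM, with a median of 40.3 CPM, in HS cells (log2 difference 1.75, SE 0.15, adjusted p = 4.68e-07), higher in 7 of 7. The others called were Tnfaip3 (log2 difference 1.57, SE 0.23, adjusted p = 5.23e-05), Birc3 (log2 difference 1.45, SE 0.26, adjusted p = 0.000354), Nfkbiz (log2 difference 1.24, SE 0.20, adjusted p = 0.000141), Rel (log2 difference 1.06, SE 0.18, adjusted p = 0.000249), Nfkb2 (log2 difference 1.05, SE 0.17, adjusted p = 0.000108) and Nfkbia (log2 difference 0.79, SE 0.17, adjusted p = 0.00132), each higher in 7 of 7 mice.

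Relb (log2 difference 0.36, SE 0.15, adjusted p = 0.0587), higher in 5 of 7 mice, and Bcl3 (log2 difference -0.29, SE 0.27, adjusted p = 0.38), higher in 2 of 7, were not called. The members were not alone: 17 of 20 early response and heat-shock genes and 18 of 21 inducible targets tested were also higher in AV cells, and none of either list was lower. Their part in the members' differences was not tested.

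**Figure D5:**
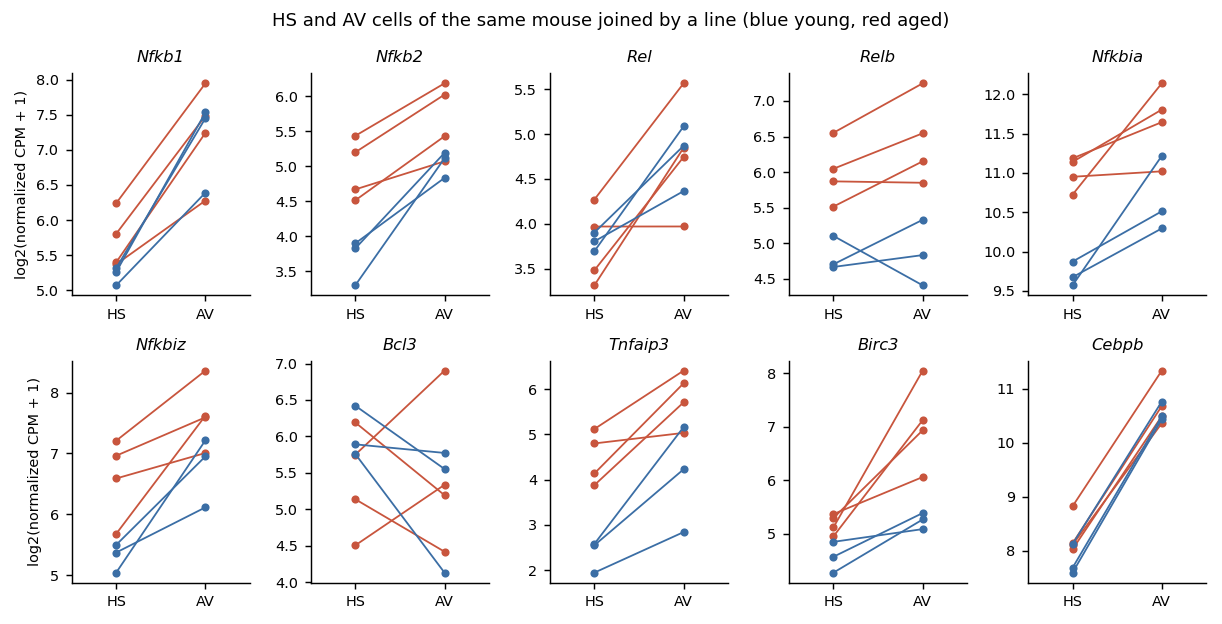
Log2(normalized CPM + 1) of the 10 genes in HS and AV cells (vertical axes do not start at 0), with the cells of a mouse joined by a line, blue for 3 young and red for 4 aged mice. Lines rise from HS to AV in all 7 mice for Cebpb and Nfkb1, and run both ways for Bcl3 and Relb.

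Myoepithelial cells were below AV cells in 4 members, where 25.1% of all genes were called lower, and above them in 1, where 23.1% were called higher. Lower were Birc3 (log2 difference -1.06, SE 0.25, adjusted p = 0.00335), Nfkbia (log2 difference -1.02, SE 0.20, adjusted p = 0.000785), Tnfaip3 (log2 difference -0.73, SE 0.27, adjusted p = 0.0339) and Nfkbiz (log2 difference -0.64, SE 0.25, adjusted p = 0.0457), each in 6 of 7 mice. Aged D was the mouse in which Nfkbia, Nfkbiz and Tnfaip3 went the other way, and Young B that of Birc3. Nfkbia ranged from 479 to 2275 CPM, with a median of 1639 CPM, in myoepithelial and from 1193 to 4308 CPM, with a median of 2262 CPM, in AV cells. Both ages enter these tests. Before normalization the myoepithelial and AV means of Nfkbiz were 38.5 and 114 CPM in young and 167 and 183 CPM in aged mice. Those of Nfkbia were 574 and 1721 CPM in young and 1907 and 2905 CPM in aged mice, and those of Birc3 29.2 and 37.6 CPM and 50.6 and 129 CPM. The call of Nfkbiz was lost without any 1 of Young A, B and C and Aged A and B, and that of Tnfaip3 without Aged A, B or C. Bcl3 was higher in myoepithelial cells in 7 of 7 mice (log2 difference 1.04, SE 0.20, adjusted p = 0.00066). Without Young A Nfkb2 was called higher as well (0.62). Cebpb was higher in 7 of 7 mice but below the fold minimum (log2 difference 0.50, SE 0.13, adjusted p = 0.0046). Early response and heat-shock genes were lower in 14 of 20 and higher in 1, and their part was not tested.

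Vascular endothelial cells had more Nfkbia than fibroblasts in 7 of 7 mice (log2 difference 1.23, SE 0.24, adjusted p = 0.00054), where 22.3% of all genes were called higher. Less was found of Nfkb1 (log2 difference -1.28, SE 0.22, adjusted p = 0.000178), lower in 6 of 7 mice, Cebpb (log2 difference -1.26, SE 0.16, adjusted p = 1.17e-05), lower in 7 of 7, and Birc3 (log2 difference -0.60, SE 0.22, adjusted p = 0.0373), lower in 6 of 7, where 22.0% of all genes were called lower. Birc3 was close to the limits and lost its call without any 1 mouse other than Aged D. Cebpb ranged from 569 to 2096 CPM, with a median of 1192 CPM, in endothelial cells and from 1642 to 4376 CPM, with a median of 2853 CPM, in fibroblasts.

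HS-AV cells were compared in the 3 young mice, with the lower fold limit the study used for these cells, a log2 difference of 0.32. Against HS cells 2 of 9 members tested were higher and none lower, where 4.28% of all genes were called higher and 1.41% lower. Cebpb had 533, 473 and 508 CPM in HS-AV cells of Young A, B and C and 314, 232 and 216 CPM in HS cells (log2 difference 1.03, SE 0.20, adjusted p = 0.000489). Nfkb1 had 81.1, 75.4 and 109 CPM and 36.9, 44.1 and 42.1 CPM (log2 difference 1.12, SE 0.25, adjusted p = 0.00321). Both were higher in each mouse, and both calls were lost without Young C (adjusted p = 0.321 and 0.568). Nfkbiz (log2 difference 0.86, SE 0.27, adjusted p = 0.0557) was called without Young A or without Young B.

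Against AV cells 5 of 9 were lower and none higher, where 10.6% of all genes were called lower and 10.2% higher. Cebpb stood at 575, 445 and 487 CPM in HS-AV cells and 1912, 1615 and 1530.5 CPM in AV cells (log2 difference -1.75, SE 0.21, adjusted p = 1.97e-08), a wide gap in each mouse. The others were Nfkb2 (log2 difference -1.30, SE 0.42, adjusted p = 0.0209), Nfkb1 (log2 difference -1.03, SE 0.26, adjusted p = 0.00251), Nfkbiz (log2 difference -0.87, SE 0.28, adjusted p = 0.0208) and Nfkbia (log2 difference -0.62, SE 0.21, adjusted p = 0.0256), which all lost their call without Young B or without Young C (adjusted p of 0.0879 to 0.505) and with DESeq2. Only Cebpb kept its call in these fits. In each of the 3 mice the Cebpb level of HS-AV cells was above that of HS and below that of AV cells. Early response and heat-shock genes were lower than in AV cells in 17 of 19, and their part was not tested.

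Macrophages were also compared in young mice, at the study's limit of 2-fold. Ma macrophages, marked by Mrc1 and Cd163, were above Mb macrophages, marked by Mmp12 and Mmp13, in 2 of 8 members tested and below in 3, where 15.8% of all genes were called higher and 11.2% lower. Rel had 70.9, 106 and 149.9 CPM in Ma cells of Young A, B and C and 305, 311 and 309 CPM in Mb cells (log2 difference -1.55, SE 0.33, adjusted p = 0.00634). Relb (log2 difference -1.61, SE 0.49, adjusted p = 0.035) and Nfkb1 (log2 difference -1.01, SE 0.28, adjusted p = 0.024) were also lower in Ma cells in each mouse. Nfkbiz had 475, 822 and 721 CPM in Ma and 296, 262 and 219 CPM in Mb cells (log2 difference 1.28, SE 0.29, adjusted p = 0.00947), and Birc3 was higher in Ma cells too (log2 difference 1.32, SE 0.35, adjusted p = 0.0197). Nfkbia was lower (log2 difference -0.91, SE 0.19, adjusted p = 0.00674) and Cebpb higher (log2 difference 0.82, SE 0.21, adjusted p = 0.0146) in Ma cells of each mouse, both short of the fold limit, and Tnfaip3 was not called (log2 difference 0.02, SE 0.27, adjusted p = 0.975).

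Of these macrophage calls, only that of Nfkbiz stayed in each fit that left out 1 mouse. Nfkb1 was lost without Young A or B, Rel without Young A (adjusted p = 0.077), Relb without Young C and, because it no longer passed the filter on low counts, without Young A, and Birc3 without Young B or C. Without Young C Nfkbia passed the fold limit (-1.09, adjusted p = 9.42e-07). Early response and heat-shock genes were higher in Ma cells in 17 of 18 tested, and their part in the differences was not tested.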

How the data were processed

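Single-cell 3′ libraries (10x Chromium v2) of the mammary glands of 7 mice were made after enzymatic digestion of the tissue. Per the study's methods the authors mapped the reads to mm10 and counted UMIs with Cell Ranger 2.0, and the deposited matrix holds whole-number counts of UMIs for cells already filtered on UMIs, genes and mitochondrial share. They also deposited, for each cell, its mouse, its cell type, named from Seurat clusters and markers, and its mitochondrial share as a fraction of UMIs, printed here as a percent. Doublets were treated as in the deposited matrix, and no doublet caller was run here. Lowest and highest depth were 2714 and 17158 UMIs per cell.

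Counts were summed per mouse and type with at least 3 cells, and the sums were tested with edgeR 4.0.16 (R 4.3.3, limma 3.58.1), by the quasi-likelihood test with TMM factors and the filterByExpr filter on low counts, over all genes that passed it, with Benjamini-Hochberg adjustment. Age was compared within 8 types, and related types and the interactions of type with age were compared with the mouse as a block. Calls needed an adjusted p under 0.05 and 1.5-fold, or the study's own limits for HS-AV cells (a log2 difference of 0.32) and macrophages (2-fold), with no fold minimum for interactions. Cells are not replicates, and each mouse counts as 1. All p-values from edgeR or DESeq2 come from models across all genes.

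The 10 members were named in every comparison, the listed pathway genes at most 6 per list and comparison by the size of a called change, and the 3 most correlated genes for each member. The members and lists were chosen with earlier results of these data known. Cell markers came from the study. Thinning drew 2000 UMIs per cell with a fixed seed. Alternatives were DESeq2 1.42.0, RLE factors, no filter, no fold minimum, at least 10 cells, blocks, equal totals, the mean of single-cell CPM and leaving out each mouse. On simulated counts with 200 genes changed 3-fold, the tests recovered 55.5% (age difference of myoepithelial against AV cells, 8602 genes) to 98% (age in vascular endothelial cells, 7648 genes), with 2 to 15 false calls. The changed genes were drawn only from those with higher mean counts, so these rates do not describe members with few UMIs. Python 3.11.15 with numpy 2.4.6, scipy 1.17.1, pandas 2.3.3 and matplotlib 3.10.9 was used for the other steps. Promoter windows were those of RefSeq on GRCm38.p6.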

Additional observations from a re-analysis of the deposited data

Results flagged for a closer look

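Among 68 groups of 4 aged mice, one for each member and type tested with age, 2 held a mouse far from the other 3 by Dixon's test, which chance gives in about 1 of 20 groups. Cebpb in HS cells was 487 CPM in Aged A, with 90% of the group's range between it and the next mouse. Tnfaip3 in vascular endothelial cells was 131 CPM in Aged A, with a gap of 85% of the range. Aged A was also the mouse with the highest Cd74 level in those cells, and the part of this was not tested.

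The age difference differed between myoepithelial and AV cells for Nfkbia by 0.98, for Nfkbiz by 1.31 and for Nfkb2 by 1.65 on the log2 scale, each larger in myoepithelial cells by the interaction test. Between vascular endothelial cells and fibroblasts it differed for Nfkbia by 1.35, for Nfkbiz by 1.16 and for Bcl3 by 1.03, each larger in vascular endothelial cells. Over all genes tested 5.82% were called in the first and 3.71% in the second of these directions. Only the endothelial calls of Nfkbia and Nfkbiz stayed in every fit that left out 1 mouse. Those fits called 1 to 3 members in the first comparison and 2 to 3 in the second.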

How the results depend on the processing

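Calls over all genes under the reported and the alternative setting are given in parentheses beside the calls of members. With DESeq2, 4 members were called with age in AV cells (678 to 977 over all genes), and 1 in Mb macrophages (10 to 45 over all genes). In the same test 1 was called in HS-AV against HS cells (425 to 180), 1 in HS-AV against AV cells (1133 to 650), 2 in Ma against Mb macrophages (451 to 323) and 1 for the age difference of myoepithelial against AV cells (873 to 688). With no filter on low counts, 4 were called in AV cells (678 to 935 over all genes) and 1 in pericytes (307 to 560), 1 for the age difference of AV against HS cells (237 to 514) and 5 for that of vascular endothelial cells against fibroblasts (490 to 692). With all libraries of a type thinned to equal totals, 2 were called in myoepithelial (1860 to 76) and 2 in HS cells (529 to 59), 9 in vascular endothelial cells (2099 to 1330), and 0 each in AV cells (678 to 3) and fibroblasts (175 to 4).

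The letters A to D of the labels did not pair young with aged mice: correlations of their deviations ran from -0.188 to 0.32 and did not all exceed 0.1 in any type. A block of the letters gave 2 calls in HS cells, with 529 to 165 over all genes, and 0 in fibroblasts, with 175 to 30. It gave 1 in pericytes (307 to 184), 6 in myoepithelial (1860 to 1269), 3 in AV (678 to 424) and 10 in vascular endothelial cells (2099 to 1558). Type comparisons pair the cells of a mouse. Without this block 7 members were called in AV against HS cells (3652 to 3580 over all genes), 2 in myoepithelial against AV cells (3767 to 3523) and 1 in HS-AV against AV cells (1133 to 608). For age differences it left 1 in myoepithelial against AV cells (873 to 526) and 1 in vascular endothelial cells against fibroblasts (490 to 265).

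Leaving out 1 mouse at a time gave 9 to 10 calls with age in vascular endothelial cells, 6 to 7 in myoepithelial, 2 to 5 in HS and 0 to 4 in AV cells, 0 to 1 in fibroblasts and 0 to 1 in pericytes. Over all genes the same fits called 1655 to 2056, 977 to 1829, 134 to 554, 201 to 619, 68 to 150 and 128 to 347. It gave 8 in AV against HS cells in every fit (3500 to 3749 over all genes), 3 to 5 in myoepithelial against AV cells (3056 to 4253), 3 to 4 in vascular endothelial cells against fibroblasts (2660 to 3361), 0 to 3 in HS-AV against HS cells (157 to 609), 1 to 6 in HS-AV against AV cells (555 to 1384) and 1 to 4 in Ma against Mb macrophages (216 to 684). For age differences that differ between types it gave 0 to 1 in AV against HS cells (83 to 294), 1 to 3 in myoepithelial against AV cells (339 to 751) and 2 to 3 in vascular endothelial cells against fibroblasts (395 to 520). The cause of these shifts was not tested.

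Over all alternatives 1705 log2 differences of single members kept their side of the threshold, 114 lost the call, 24 gained it and none of the called ones changed sign. For members not called, a change of sign was not counted. A called member that no longer passed the filter on low counts in an alternative was left out of these numbers. More calls were therefore lost than the 114. A minimum of 10 cells moved 2 of 120 levels by more than 1 SD and the mean of single-cell CPM 1 of 130, while thinning moved 95 of 130 shares of cells. A minimum of 10 cells could not be run by age in Mb macrophages and T and B cells. Members near 10 CPM rest on few UMIs per mouse.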
